A study of Mus musculus with 12 samples.

Results

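Hmga1, Hmga2, Arid3a, Arid3b, Hic2, E2f5, E2f6, Plagl2, Bach1 and Smarcad1 encode DNA-binding and chromatin proteins that are widely described as targets of the microRNA let-7. Their RNA levels were followed in mouse stromal cells that lack most microRNAs, with and without a let-7 duplex. They were taken by gene name and make up 10 of the 21881 genes in the deposited table. The cells were immortalized monoclonal mesenchymal stem cells (MSCs, fibroblast-like cells of the bone marrow) of strain C57BL/6, all harvested 48 h after transfection at 20 nM. WT_siCtrl cells carried Dicer f/f and received a control siRNA with no target. The other 3 groups shared the genotype Dicer -/-, and were given that control siRNA again (KO_siCtrl), a synthetic duplex of let-7g (KO_let-7g) or an siRNA that targets Nr6a1 (KO_siNr6a1). Each group had 3 libraries, numbered 0, 1 and 2. The number of clonal lines per genotype is not stated in the labels, so genotype and clonal line cannot be told apart. Nor do they state whether the libraries of a group are separate cultures, and the p-values cover only the spread among these libraries, possibly technical.

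Dicer cuts microRNA precursors into mature microRNAs, so cells without it lack most of them, and a ready-made duplex bypasses that step. A microRNA pairs with the 3′ untranslated region (3′ UTR) of a messenger RNA mainly through its seed near the 5′ end, and pairing lowers the RNA level, its translation or both. The let-7 family is abundant in adult tissues and scarce in the early embryo, and many of its described targets are embryonic growth genes. Among the 10 genes, Hmga1 and Hmga2 bend AT-rich DNA, Arid3a, Arid3b, Hic2, Plagl2, E2f5, E2f6 and Bach1 are sequence-specific transcription factors, and Smarcad1 is an ATP-dependent chromatin remodeller.

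The seed is printed in capitals in the mature sequences below (bases 2 to 8, RefSeq, GRCm38.p6), which show what the duplex shares with the rest of its family. All but 1 of the 11 let-7 and miR-98 names in that table have the seed of let-7g, and let-7j is the exception. The labels do not give the sequence of the duplex itself.
mmu-let-7g-5p: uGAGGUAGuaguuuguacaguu
mmu-let-7a-5p: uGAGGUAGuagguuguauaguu
mmu-miR-98-5p: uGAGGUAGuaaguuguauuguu
mmu-let-7j: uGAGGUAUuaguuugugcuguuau

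The longest annotated 3′ UTR of each gene (GENCODE M21, GRCm38) was searched on the transcript strand for 3 seed matches: CTACCTCA (8mer), CTACCTC without the final A (7mer-m8) and TACCTCA without the leading C (7mer-A1), a position being counted once under its longest match. All 10 genes held at least 1 match and 5 held an 8mer, against 16.8% and 3.62% of the 10217 tested genes that have an annotated 3′ UTR. Within the length range of the 10 genes (592 to 4262 bases, 6591 tested genes) these shares were 19.0% and 3.93%. The genes are described as let-7 targets partly because of such matches, so these counts are no independent result, and a match is a description and not a measured site. Hmga2 held 7 matches, Arid3b and Hic2 held 5 each, Arid3a held 4, Bach1 and Smarcad1 held 2 each, and Hmga1, E2f5, E2f6 and Plagl2 held 1 each. The sequences below are each of the 6 copies of the 8mer, followed by the sole match of Hmga1, E2f5 and Plagl2 and the 7mer-m8 of Arid3b, each with the 16 bases before it and with the match in capitals. Every one lies in the last exon, within the 3′ UTR.
Hmga2, 8mer, exon 6 of 6, chr10:120364224-120364247, minus strand: cgccgacattcaatttCTACCTCA
Arid3a, 8mer, exon 9 of 9, chr10:79953894-79953917, plus strand: caaggcaagtttctttCTACCTCA
Hic2, 8mer, exon 3 of 3, chr16:17262869-17262892, plus strand: accagggacccctcccCTACCTCA
E2f6, 8mer, exon 7 of 7, chr12:16826402-16826425, plus strand: aatcacctagcgctctCTACCTCA
Bach1, first 8mer, exon 5 of 5, chr16:87731984-87732007, plus strand: caagccaatggatttcCTACCTCA
Bach1, second 8mer, exon 5 of 5, chr16:87732277-87732300, plus strand: aatacaagtaactacaCTACCTCA
Hmga1, 7mer-m8, exon 5 of 5, chr17:27563276-27563298, plus strand: ctcctctgttcacaaaCTACCTC
E2f5, 7mer-m8, exon 8 of 8, chr3:14605728-14605750, plus strand: aacttgggactattatCTACCTC
Plagl2, 7mer-m8, exon 3 of 3, chr2:153229899-153229921, minus strand: attcagaaacacacttCTACCTC
Arid3b, 7mer-m8, exon 9 of 9, chr9:57790362-57790384, minus strand: atatttcaataaagctCTACCTC

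**Figure D1:**
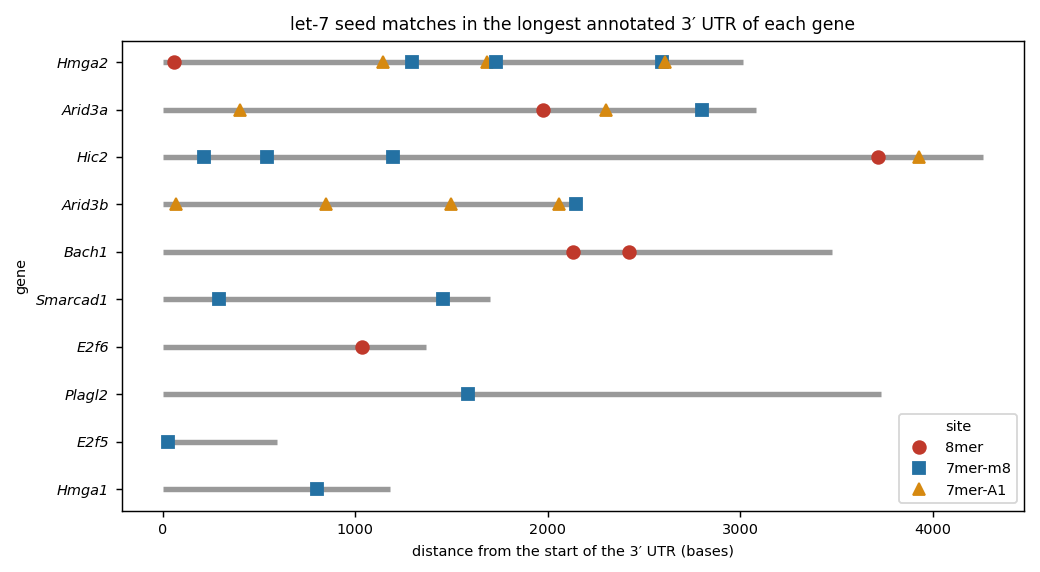
Seed matches of let-7 in the longest annotated 3′ UTR of the 10 genes. Each horizontal bar is a 3′ UTR drawn to scale from the stop codon (x axis, bases), and symbols give the kind of match. Hmga2, Arid3a, Arid3b and Hic2 carry 4 to 7 matches, and the other 6 genes carry 1 or 2.

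Levels are FPKM values, the fragments of a gene over its transcript length and the library's mapped total, which are already divided by transcript length and can be set side by side between genes. Fold changes and their standard errors (SE) are on the log2(FPKM + 1) scale, and a gene is called higher or lower where limma gave a Benjamini-Hochberg adjusted p under 0.05 over all genes tested. Of the 21881 genes, 11801 reached 1 FPKM in at least 3 libraries and were tested, and all 10 genes were among them. The number of reads is not known, but the lowest values gave relative depths of 1 to 1.31 in KO_siCtrl, 1.34 to 1.82 in KO_let-7g, 1.11 to 1.29 in WT_siCtrl and 1.13 to 1.57 in KO_siNr6a1. Of 12 mesenchymal markers 11 stood at 1 FPKM or more in every library, and Thy1, a usual MSC marker, did not. Their summed level was 2630 to 3053 FPKM in WT_siCtrl, 1254 to 1396 in KO_siCtrl, 1235 to 1457 in KO_let-7g and 1576 to 1692 in KO_siNr6a1. None of the 4 endothelial and 4 epithelial markers reached 1 FPKM in any library, nor did 5 of 7 blood markers, Ptprc among them. The summed blood markers, carried by Cd14 and Cd68, were 7.98 to 10.2 FPKM in WT_siCtrl, 12.5 to 15.5 in KO_siCtrl, 18.3 to 26.3 in KO_let-7g and 9.0002 to 11.03 in KO_siNr6a1, and the part of either marker sum in the results was not tested. In these bulk libraries, fewer cells that express a gene and less RNA per cell cannot be told apart.

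Nr6a1, the nuclear receptor targeted by the siRNA, stood at 11.7 ± 1.32 FPKM (SD, n = 3 libraries, as for every mean here) in KO_siCtrl and 3.68 ± 0.539 in KO_siNr6a1, a log2 difference of -1.44 (limma, adjusted p = 7.34e-05). It was at 1.12 ± 0.158 in WT_siCtrl and 4.22 ± 1.04 in KO_let-7g. Dicer1 was lower in KO_siCtrl than in WT_siCtrl, at 3.86 ± 0.214 against 6.58 ± 1.45 (log2 difference -0.63, adjusted p = 0.00208). A value for the whole gene does not show whether the floxed segment was lost.

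**Figure D2:**
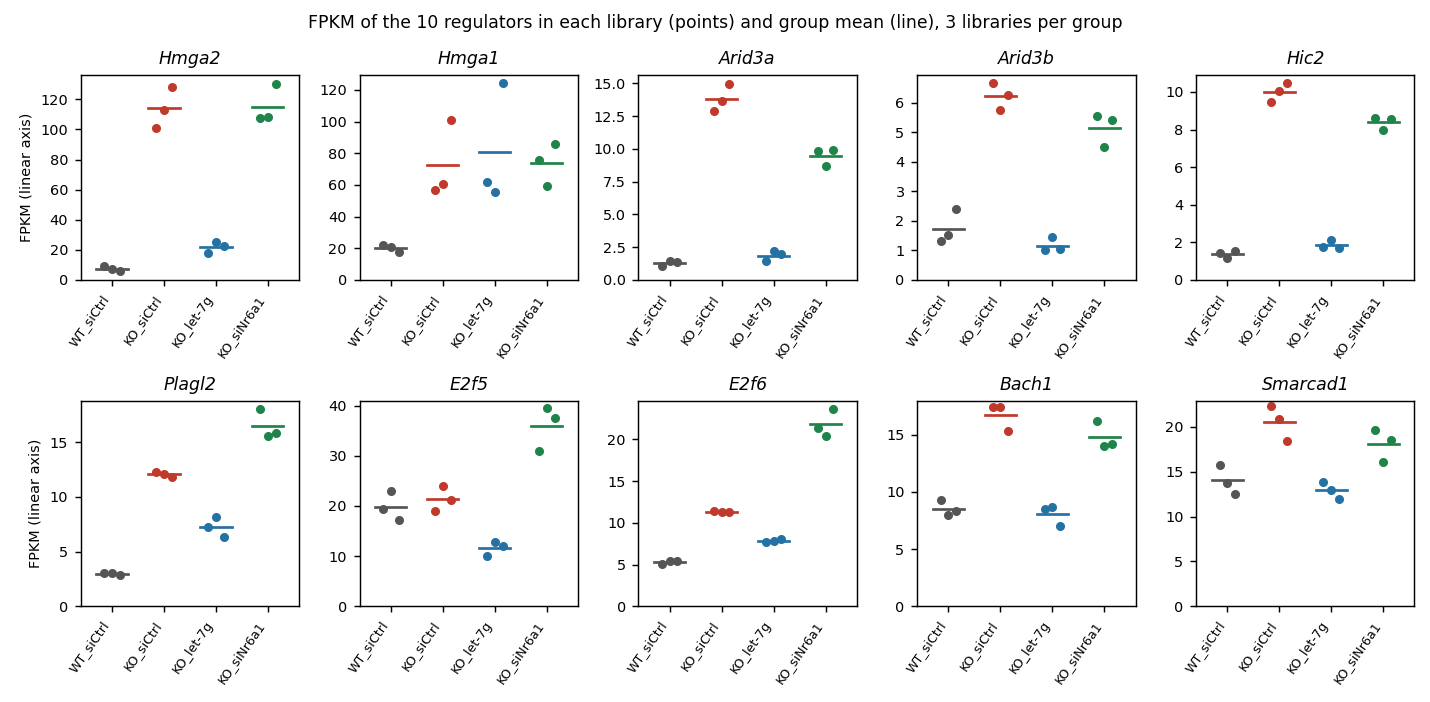
FPKM of the 10 genes in each of the 12 libraries. Each panel is a gene, each point a library and each horizontal line a group mean, with the 4 groups along the x axis and FPKM on the y axis. Hmga2, Arid3a, Arid3b and Hic2 are low in WT_siCtrl and KO_let-7g and high in KO_siCtrl and KO_siNr6a1, whereas E2f5, E2f6 and Plagl2 are highest in KO_siNr6a1.

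In cells without Dicer, 9 of the 10 genes were called higher than in cells with it, and E2f5 was not called. Across all tested genes 29.1% were called higher and 25.2% lower in this comparison. The median log2 difference of the 10 genes was 1.57, beside 0.04 over all tested genes. With the let-7g duplex, 9 of the 10 fell against KO_siCtrl, and Hmga1 did not. Over all tested genes 18.2% were called lower and 27.5% higher, or 23% and 22.3% after median-of-ratios scaling. The median log2 difference was -0.90 for the 10 genes and 0.08 for all. In each comparison the 9 called genes had ranges that did not overlap between the groups, where 30.7% of all tested genes did so upward in the first and 22.4% downward in the second. Both comparisons share the KO_siCtrl libraries, so a library that is off there moves both in opposite directions. The values are therefore given gene by gene.

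**Figure D3:**
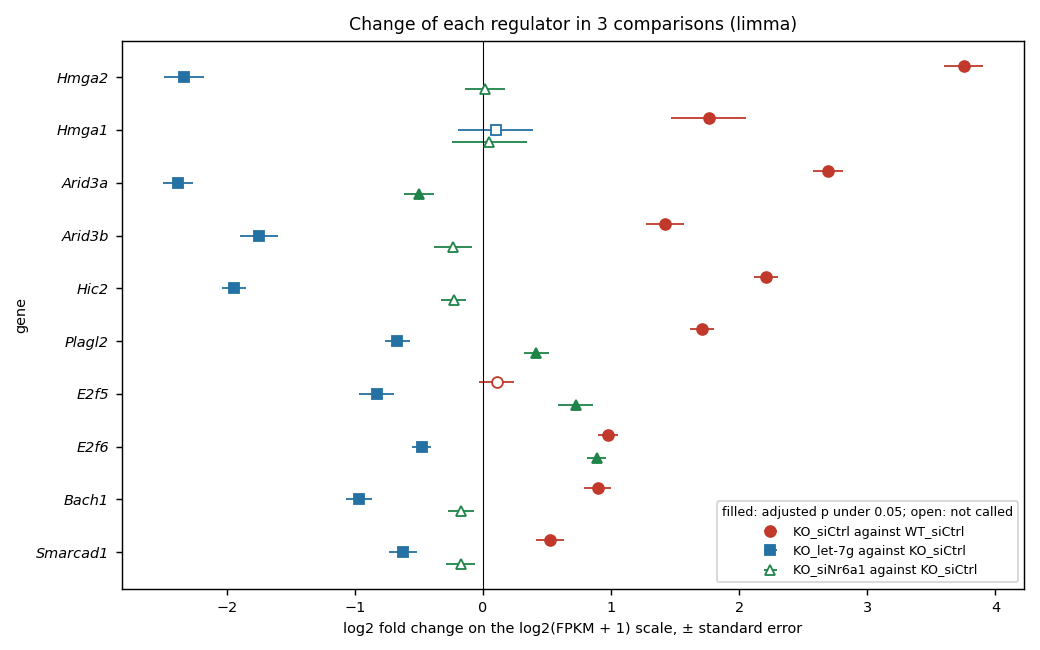
Log2(FPKM + 1) differences of the 10 genes with their standard errors in KO_siCtrl against WT_siCtrl, KO_let-7g against KO_siCtrl and KO_siNr6a1 against KO_siCtrl. Filled points passed an adjusted p of 0.05 (limma). Hmga2 spans 3.75 to -2.33 over the first 2 comparisons, while Hmga1 stands at 1.76 and 0.10.

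Hmga2 is an architectural protein of chromatin, high in embryonic cells and low in most adult ones. It stood at 9.11, 7.44 and 6.20 FPKM in the WT_siCtrl libraries and at 101, 113 and 128 in KO_siCtrl. The let-7g duplex left it at 17.95, 25.5 and 22.4, and the siRNA against Nr6a1 at 107, 108 and 130. The KO_let-7g libraries thus lay between those of WT_siCtrl and KO_siCtrl without overlapping either, and the KO_siNr6a1 libraries lay in the range of KO_siCtrl and just above it. The mean was 15.04-fold higher in KO_siCtrl than in WT_siCtrl (log2 difference 3.75, SE 0.154, adjusted p = 1.25e-08). With let-7g it was 5.19-fold lower than in KO_siCtrl (-2.33, adjusted p = 2.09e-06) and still 2.90-fold above WT_siCtrl (1.42, adjusted p = 1.78e-05). The difference between KO_siNr6a1 and KO_siCtrl was 0.02 (SE 0.154, adjusted p = 0.955).

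Hmga1 encodes the other architectural protein of this family. Its level was 21.9, 20.9 and 17.6 FPKM in WT_siCtrl and 57.0, 60.4 and 101 in KO_siCtrl. It read 61.9, 55.6 and 124 with let-7g and 75.6, 59.2 and 86.1 with the siRNA against Nr6a1. All 9 libraries without Dicer exceeded all 3 with it, and the 3 groups without Dicer overlapped each other, with the library numbered 2 the highest of each. Hmga1 rose by 1.76 in KO_siCtrl (SE 0.293, adjusted p = 0.000401), whereas the differences from KO_siCtrl were 0.10 with let-7g (SE 0.293, adjusted p = 0.814) and 0.05 with the siRNA (adjusted p = 0.928). Without the 4 libraries numbered 2, a choice made after the data were seen, the rise was 1.41 (adjusted p = 0.000349) and the difference with let-7g was 0.00.

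Within a library, log2(FPKM + 1) of Hmga2 minus that of Hmga1 was -1.31 ± 0.110 in WT_siCtrl and 0.68 ± 0.30 in KO_siCtrl, and -1.75 ± 0.664 with let-7g and 0.65 ± 0.183 with the siRNA against Nr6a1. Hmga1 was thus the more abundant of the pair in WT_siCtrl and KO_let-7g, and Hmga2 in the other groups. The difference moved by 1.99 without Dicer and by -2.43 with let-7g, each at an exact two-sided permutation p = 0.1. That is the smallest p this permutation test allows with 3 against 3 libraries (adjusted p = 0.129 over the 9 pair tests), so it cannot reach 0.05.

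**Figure D4:**
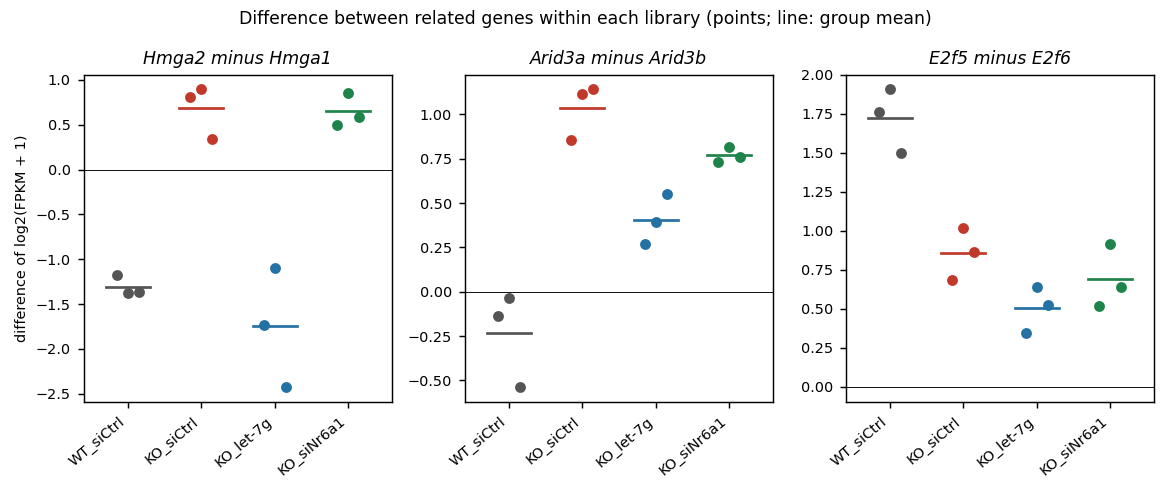
Difference of log2(FPKM + 1) between the members of 3 related pairs within each library. Each point is a library, each horizontal line a group mean, the x axis gives the 4 groups and 0 marks equal levels. Hmga2 minus Hmga1 is above 0 in KO_siCtrl and KO_siNr6a1 and below 0 in WT_siCtrl and KO_let-7g, and E2f5 minus E2f6 is above 0 in all 4 groups.

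Arid3a and Arid3b bind AT-rich DNA through an ARID domain, and Arid3a is best known as an activator of immunoglobulin heavy chain genes in B cells. Arid3a stood at 1.10, 1.45 and 1.35 FPKM in WT_siCtrl, 12.9, 13.7 and 14.99 in KO_siCtrl, 1.41, 2.20 and 1.98 with let-7g and 9.87, 8.69 and 9.89 with the siRNA against Nr6a1. The KO_let-7g libraries reached down into the WT_siCtrl range, and the KO_siNr6a1 libraries lay below every KO_siCtrl library. Its mean was 10.7-fold higher without Dicer (2.69, SE 0.119, adjusted p = 2.14e-08) and 7.43-fold lower with let-7g (-2.38, adjusted p = 5.34e-07). Arid3a was also the only one of the 10 genes called lower with the siRNA against Nr6a1, with a difference of -0.50 (adjusted p = 0.00928). Without the 4 libraries numbered 2 it was -0.48 (adjusted p = 0.0951).

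Arid3b stood at 1.30, 1.51 and 2.41 FPKM in WT_siCtrl and at 6.68, 5.77 and 6.25 in KO_siCtrl. With let-7g it was at 0.99997, 1.44 and 1.04, below or within the WT_siCtrl range, and with the siRNA against Nr6a1 at 5.54, 4.50 and 5.43. It was 3.58-fold higher without Dicer (1.42, SE 0.148, adjusted p = 1.38e-05) and 5.38-fold lower with let-7g (-1.75, adjusted p = 8.24e-06). The siRNA gave a difference of -0.23 (adjusted p = 0.262). Arid3a minus Arid3b within a library was -0.24 ± 0.266 in WT_siCtrl and 1.04 ± 0.157 in KO_siCtrl, and 0.40 ± 0.140 with let-7g and 0.77 ± 0.0427 with the siRNA. This difference moved by 1.27 without Dicer and moved by -0.63 with let-7g and -0.27 with the siRNA, each at an exact permutation p = 0.1, the smallest possible.

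Hic2 is a BTB zinc finger repressor. Its level was 1.42, 1.18 and 1.56 FPKM in WT_siCtrl, 9.47, 10.1 and 10.5 in KO_siCtrl, 1.76, 2.14 and 1.69 with let-7g and 8.62, 7.95 and 8.57 with the siRNA against Nr6a1. The spread within a group was small, and the 4 groups did not overlap. Hic2 was 7.23-fold higher without Dicer (2.21, SE 0.0953, adjusted p = 1.77e-08) and 5.36-fold lower with let-7g (-1.94, adjusted p = 5.34e-07). With the siRNA the difference was -0.23 (adjusted p = 0.0932).

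Plagl2, a zinc finger activator of the PLAG family, had the smallest spread of the 10 relative to its mean in WT_siCtrl (CV 3.26%). It stood at 3.04, 3.06 and 2.88 FPKM there, at 12.3, 12.1 and 11.8 in KO_siCtrl, at 7.28, 8.16 and 6.32 with let-7g and at 18.02, 15.6 and 15.8 with the siRNA against Nr6a1. The 4 groups did not overlap, and KO_siNr6a1 was the highest. Plagl2 rose 4.03-fold without Dicer (1.71, SE 0.0954, adjusted p = 1.12e-07) and fell 1.66-fold with let-7g (-0.67, adjusted p = 0.000221). It rose a further 1.37-fold with the siRNA (0.42, adjusted p = 0.00762). With let-7g it remained 2.42-fold above WT_siCtrl (1.04, adjusted p = 4.90e-06).

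E2f5 and E2f6 are the repressor-type E2F factors of this set: E2f5 works with the pocket proteins in resting cells, and E2f6 acts without them, in a Polycomb-related complex that silences germline genes. E2f5 stood at 19.4, 23.0 and 17.2 FPKM in WT_siCtrl and at 19.0, 23.9 and 21.3 in KO_siCtrl, where the groups overlap (0.11, SE 0.136, adjusted p = 0.535). It was at 10.02, 12.8 and 11.96 with let-7g, below every library of either control group, and at 30.98, 39.5 and 37.5 with the siRNA against Nr6a1, above every other library. Against KO_siCtrl it fell 1.84-fold with let-7g (-0.83, adjusted p = 0.000544) and rose 1.68-fold with the siRNA (0.72, adjusted p = 0.00266). E2f5 was the only one of the 10 genes called lower with let-7g than in WT_siCtrl (-0.72, adjusted p = 0.000874).

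E2f6 stood at 5.01, 5.39 and 5.43 FPKM in WT_siCtrl, 11.4, 11.3 and 11.2 in KO_siCtrl, 7.67, 7.84 and 8.01 with let-7g and 21.4, 20.4 and 23.7 with the siRNA against Nr6a1. These 4 ranges were well apart, in the order WT_siCtrl, KO_let-7g, KO_siCtrl and KO_siNr6a1. E2f6 rose 2.15-fold without Dicer (0.97, SE 0.0763, adjusted p = 1.51e-06), fell 1.44-fold with let-7g (-0.48, adjusted p = 0.000461) and rose 1.93-fold with the siRNA (0.89, adjusted p = 3.49e-05). E2f5 minus E2f6 within a library was 1.72 ± 0.207 in WT_siCtrl and 0.86 ± 0.168 in KO_siCtrl (exact permutation p = 0.1). It was 0.50 ± 0.148 with let-7g and 0.69 ± 0.206 with the siRNA.

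Among 18 partners of E2f5 and E2f6 (dimerization partners, pocket proteins and subunits of the E2f6 complex), 5 rose and 3 fell with let-7g, with a median of 0.10, and 3 rose without the 4 libraries numbered 2. These shares are near the 27.5% of all tested genes called higher and 18.2% called lower, so they are no result about the partners. The rises were Tfdp2, the dimerization partner (4.79 ± 0.467 to 10.5 ± 0.962 FPKM, 0.99), the pocket protein Rbl1 (24.7 ± 2.57 to 43.6 ± 4.89, 0.79), Ring1 (10.5 ± 1.27 to 19.2 ± 1.70, 0.82), Cbx1 and Tfdp1. L3mbtl2, a subunit of the E2f6 complex, fell from 40.3 ± 5.80 to 23.95 ± 2.19 (-0.72), and Max and Rnf2 fell as well. Without Dicer, L3mbtl2, Rnf2 and Pcgf6 were higher and Tfdp2 was lower, and a fit with the library number as a block gave 5 each way. Of all tested genes 29.1% were called higher and 25.2% lower in that comparison, so these calls are no result about the partners either. Of 12 germline genes that E2f6 is known to repress, 10 did not reach the level for testing. Tdrkh and Sycp3 did, and both were lower in KO_siCtrl than in WT_siCtrl (-0.52 and -0.94), although 1 of the 2 passed without the 4 libraries numbered 2. Sycp3 reached that level only through WT_siCtrl, where it stood at 2.37 ± 0.775 FPKM. Its lower level in KO_siCtrl is thus partly fixed by the filter and is no independent result. With let-7g Tdrkh was at 5.31 ± 0.680 against 4.89 ± 1.08 FPKM and Sycp3 at 0.719 ± 0.215 against 0.757 ± 0.427, and neither passed the test.

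Bach1 is a haem-regulated repressor of antioxidant and iron-handling genes, and the gene of the set with a pair of 8mers, which 0.0910% of tested genes in the same range of 3′ UTR length have. It stood at 9.27, 7.99 and 8.37 FPKM in WT_siCtrl, 17.4, 17.4 and 15.3 in KO_siCtrl, 8.49, 8.69 and 7.03 with let-7g and 16.2, 14.0 and 14.1 with the siRNA against Nr6a1. The KO_let-7g libraries overlapped those of WT_siCtrl, and the KO_siNr6a1 libraries overlapped those of KO_siCtrl. Bach1 rose 1.96-fold without Dicer (0.89, SE 0.102, adjusted p = 2.68e-05) and fell 2.07-fold with let-7g (-0.97, adjusted p = 2.97e-05). The difference with the siRNA was -0.17 (adjusted p = 0.237), and that between KO_let-7g and WT_siCtrl was -0.08 (SE 0.102, adjusted p = 0.548).

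All 15 listed genes that Bach1 is known to repress were tested, and 10 of them rose with let-7g while 1 fell, with a median of 0.48 beside 0.08 over all tested genes. Of all tested genes 27.5% were called higher and 18.2% lower, or 22.3% and 23% after median-of-ratios scaling. The number that rose was 8 to 14 over 25 alternative settings. Srxn1, which repairs oxidized peroxiredoxins, went from 24.4 ± 3.002 to 95.9 ± 24.8 FPKM (1.91, adjusted p = 7.99e-06). Sqstm1, an autophagy receptor, went from 199.9 ± 27.1 to 506 ± 107 (1.32), and Fech, the last enzyme of haem synthesis, from 27.2 ± 1.65 to 53.1 ± 1.18 (0.94). Hmox1, the haem oxygenase that is the best known Bach1 target, stood at 209 ± 51.2 and 466 ± 174 (1.12, adjusted p = 0.00377). The gene that fell was Ftl1, the ferritin light chain, from 2096 ± 428 to 780 ± 183 (-1.43). Genes with near-identical copies, Ftl1 among them, may lose or gain reads to them whichever way they moved, and this was not tested. In KO_siCtrl against WT_siCtrl, where Bach1 rose, Abcb6 and Slc48a1 were higher, Me1 and Gclc were lower, and the median was 0.08. Both counts lie below the shares of all tested genes in that comparison, 29.1% called higher and 25.2% lower. They are thus no result about the listed genes. Leaving out 1 library (KO_siCtrl replicate 0 or 2, or WT_siCtrl replicate 0 or 1) took 1 gene from either count, and the block gave 4 higher. With the siRNA against Nr6a1, where Bach1 was not called, 3 of the 15 rose, namely Srxn1, Fech and Me1, beside 13.2% of all tested genes. The part of Bach1 in the changes of these genes was not tested.

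**Figure D5:**
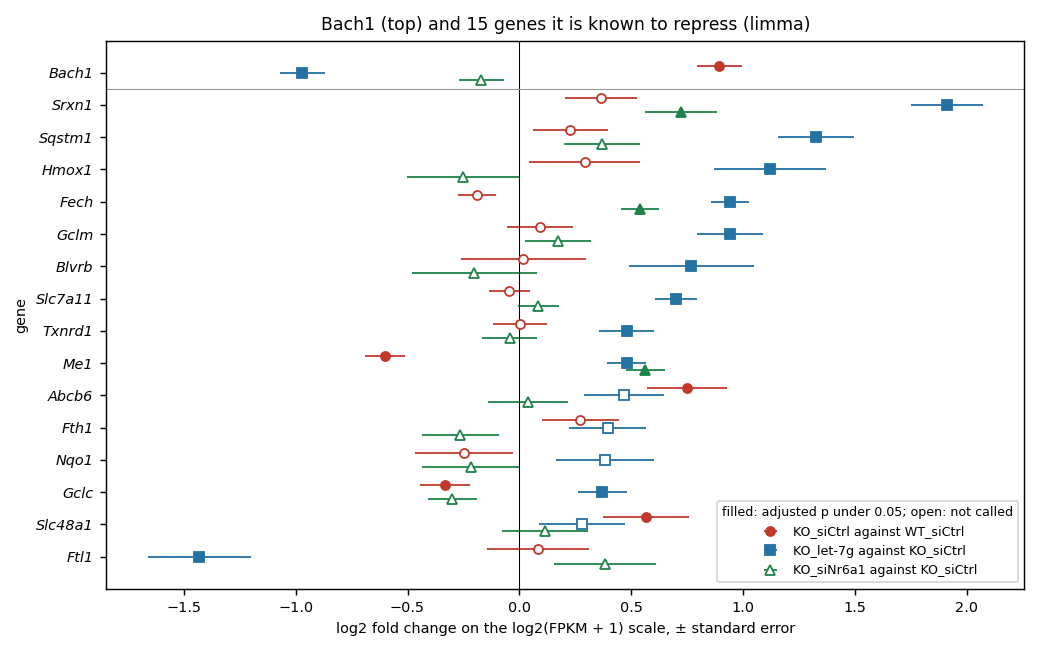
Log2(FPKM + 1) differences of Bach1 and of the 15 genes it is known to repress, in KO_siCtrl against WT_siCtrl (circles), KO_let-7g against KO_siCtrl (squares) and KO_siNr6a1 against KO_siCtrl (triangles). Each row is a gene, bars are standard errors and filled points passed an adjusted p of 0.05 (limma). With let-7g 10 of the 15 lie to the right of 0 and passed, and Ftl1 passed to the left.

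Smarcad1, a remodeller that helps restore silent chromatin after replication and takes part in DNA end resection, showed the smallest of the called rises without Dicer. It stood at 15.8, 13.7 and 12.5 FPKM in WT_siCtrl, 22.4, 20.9 and 18.4 in KO_siCtrl, 13.9, 13.0 and 11.9 with let-7g and 19.6, 16.1 and 18.6 with the siRNA against Nr6a1. In WT_siCtrl, KO_siCtrl and KO_let-7g the library numbered 2 was the lowest, and the KO_let-7g and WT_siCtrl ranges overlapped. Smarcad1 rose 1.46-fold without Dicer (0.52, SE 0.111, adjusted p = 0.00218) and fell 1.59-fold with let-7g (-0.63, adjusted p = 0.000915). The difference with the siRNA was -0.18 (adjusted p = 0.263).

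The 10 genes differed in how closely the let-7g duplex brought them to the cells with Dicer. Compared directly, 6 of the 10 were higher in KO_let-7g than in WT_siCtrl and 1 was lower, beside 35.3% and 22.8% of all tested genes (26.4% and 28.7% after median-of-ratios scaling). Hmga1 (1.86, adjusted p = 0.000259), Hmga2, Plagl2 and E2f6 (0.49, adjusted p = 0.000225) remained above WT_siCtrl. Arid3a (0.31, adjusted p = 0.0428) and Hic2 (0.27, adjusted p = 0.0323) passed narrowly: the call for Arid3a was lost in 16 of 25 alternative settings (highest adjusted p = 0.189) and that for Hic2 in 10 (highest adjusted p = 0.132). Leaving out any of 8 libraries ended the call for Arid3a (adjusted p = 0.0510 to 0.162), namely KO_siCtrl replicates 0 and 1, WT_siCtrl replicates 0 and 2, KO_let-7g replicates 1 and 2 and KO_siNr6a1 replicates 0 and 2. Leaving out WT_siCtrl replicate 0 or 1 or KO_let-7g replicate 0 or 1 ended that for Hic2 (adjusted p = 0.0514 to 0.128). Arid3b (-0.33, SE 0.148, adjusted p = 0.0777) did not pass, but did so without WT_siCtrl replicate 0 (adjusted p = 0.0305). Median-of-ratios scaling moved the median of all tested genes in this comparison from 0.12 to -0.01, and in KO_let-7g against KO_siNr6a1 likewise.

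The siRNA against Nr6a1 and the let-7g duplex left 9 of the 10 genes, all but Hmga1, at different levels. With the siRNA against KO_siCtrl, 3 of the 10 rose (E2f5, E2f6 and Plagl2) and Arid3a fell, beside 13.2% of all tested genes called higher and 16.3% lower (15.7% and 12.2% after median-of-ratios scaling). The libraries of the 3 genes that rose all lay above those of KO_siCtrl, and those of Arid3a, Arid3b and Hic2 all lay below, beside 19.2% and 26.9% of all tested genes, although Arid3b and Hic2 were not called. With the library number as a block, the number of all tested genes called went from 3474 to 5248, and the calls of the 10 genes did not change. Tested directly, 9 of the 10 were lower in KO_let-7g than in KO_siNr6a1, beside 13.3% of all tested genes called lower and 27.6% higher (20.3% and 16.7% after median-of-ratios scaling). The differences ran from -2.35 for Hmga2 (adjusted p = 5.44e-06) to -0.45 for Smarcad1 (adjusted p = 0.00778), and that for Hmga1 was 0.05 (SE 0.293, adjusted p = 0.910). Without the 4 libraries numbered 2 the adjusted p for Smarcad1 was 0.0627. Nr6a1 itself differed by 0.14 between these groups (adjusted p = 0.466).

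The number of seed matches and the size of the fall with let-7g can be set side by side. Hmga2, Arid3a, Arid3b and Hic2, with 4 to 7 matches, had log2 differences from -2.38 to -1.75. The 6 genes with 1 or 2 matches, Hmga1, E2f5, E2f6, Plagl2, Bach1 and Smarcad1, had differences from -0.97 to 0.10, and the ranges do not overlap. Among the other tested genes the median difference was 0.11 for 8503 genes with no match, -0.16 for 1384 with 1, -0.19 for 259 with 2, -0.40 for 43 with 3 and -0.46 for 18 with 4 or more. The share called lower was 15.4%, 36.0%, 41.3%, 51.2% and 55.6% in the same order. The 18 genes with 4 or more matches ran from -1.65 for Igf2bp1 to 0.57 for Mcf2l, with 10 called lower and 1 higher. Matches were counted in the longest annotated 3′ UTR only. The shortest annotated one has 175 bases for Arid3b, 924 for Hic2, 264 for Smarcad1 and 49 for Hmga1, and which of them these cells use is not known. The median 3′ UTR length rose along this series from 999 to 6128 bases, and the part of length in it was not tested.

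A list of 31 other described let-7 targets was read beside the 10 genes, and 25 of them were tested. With let-7g 18 fell and Rrm2 rose (median -0.95), the latter neither after median-of-ratios scaling nor without the 4 libraries numbered 2, and without Dicer 17 were higher and Rrm2 was lower (median 0.46). Of all tested genes 18.2% fell and 27.5% rose with let-7g (median 0.08), or 23% and 22.3% after median-of-ratios scaling. Without Dicer 29.1% of them were higher and 25.2% lower (median 0.04). Of the falls with let-7g, those with the smallest adjusted p were Igf2bp2, an RNA-binding protein of embryonic growth (135 ± 3.90 to 33.7 ± 4.64 FPKM, -1.98), its relative Igf2bp1 (29.2 ± 4.06 to 8.60 ± 0.932, -1.65), the phosphatase Cdc25a (26.1 ± 1.195 to 13.2 ± 0.320, -0.93) and the kinase Map4k3 (26.9 ± 1.83 to 13.0 ± 1.01, -1.0). Like E2f5, Cdc25a was not called without Dicer, and stood at 27.6 ± 0.409 in WT_siCtrl, near KO_siCtrl (-0.08, adjusted p = 0.337).

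Relatives of the 10 genes that were not chosen as let-7 targets moved in both directions. Of 26 tested relatives 4 rose and 9 fell with let-7g (median -0.08), and 11 were higher and 6 lower without Dicer (median 0.15). Over all tested genes 27.5% rose and 18.2% fell with let-7g, and 29.1% were higher and 25.2% lower without Dicer. The rises with let-7g were E2f7, a repressor of the E2F family (12.7 ± 1.06 to 25.5 ± 2.39 FPKM, 0.96), Hmgb3 (8.91 ± 0.968 to 17.6 ± 1.75, 0.91), Hmgb2 and Plagl1. The means of Plagl1 were below 1 FPKM in both groups (0.185 ± 0.132 to 0.737 ± 0.230). It was tested only because of its level in WT_siCtrl (6.91 ± 2.35). The block gave 7 rises, and leaving out KO_siCtrl replicate 2 gave 2. The falls with the smallest adjusted p were Smarca4, the ATPase of the BAF remodelling complex (57.1 ± 2.17 to 28.7 ± 1.51, -0.97), and Arid1b, another subunit of that complex (15.9 ± 1.14 to 9.36 ± 0.157, -0.71).

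With the siRNA against Nr6a1 the lists gave calls in both directions. Of all tested genes 13.2% were called higher and 16.3% lower in this comparison, or 15.7% and 12.2% after median-of-ratios scaling. Among 25 tested other let-7 targets Fas, Thbs1, Nras and Rrm2 rose and 5 fell, Nr6a1, Ccnd1, Map4k3 and Cdc25a among them. The rises were 7 with the block and 2 without KO_siCtrl replicate 2 or KO_siNr6a1 replicate 2. Among 26 tested relatives E2f7 rose and 8 fell, and among the 18 partners Rb1 rose and 8 fell. The call for E2f7 was lost without KO_siCtrl replicate 1 or KO_siNr6a1 replicate 0, and that for Rb1 without KO_siCtrl replicate 2 or KO_siNr6a1 replicate 1. The falls among the partners were 5 without KO_siCtrl replicate 1, and the block gave 3 rises among relatives and 4 among partners. Srxn1, Fech and Me1 rose among the 15 genes that Bach1 is known to repress, or 5 genes with the block.

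Across the 12 libraries, the profile of each of the 10 genes was set against the mean standardized profile of the other 9, as a description only, since all libraries share the same 4 groups. Pearson's r was 0.98 for Hic2, 0.97 for Hmga2 and Arid3a, 0.93 for Bach1, 0.91 for Plagl2 and Arid3b, 0.87 for E2f6, 0.82 for Smarcad1, 0.61 for E2f5 and 0.53 for Hmga1. E2f5 and Hmga1 are the genes that missed a call in 1 of the first 2 comparisons. The tested genes outside the set whose profile was most like the mean of the 10 were Zc3hav1l (r = 0.991), Rabl3 (0.990), Trim6 (0.988), Prlr (0.986) and Hif1an (0.985). Prlr was tested only because of its levels in KO_siCtrl (1.24 ± 0.223 FPKM) and KO_siNr6a1 (1.19 ± 0.0657). It stood at 0.0587 ± 0.0218 in WT_siCtrl and 0.280 ± 0.0811 in KO_let-7g. Its likeness is thus partly fixed by the filter. Zc3hav1l, for example, stood at 2.84 ± 0.292 FPKM in WT_siCtrl and 3.95 ± 0.697 in KO_let-7g, and at 12.5 ± 1.52 in KO_siCtrl and 12.6 ± 1.43 in KO_siNr6a1. The longest 3′ UTRs of Zc3hav1l, Rabl3, Trim6, Prlr and Hif1an held 4, 1, 6, 2 and 5 seed matches. Those most like Hmga2 alone were Sec14l1 (0.991), Sik1 (0.983), and Itga5, Slc23a2 and Pigm (0.982 each), with 1, 0, 0, 0 and 2 matches.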

How the data were processed

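Polyadenylated RNA of 12 libraries was sequenced by the submitters. The authors deposited 1 table of FPKM values, made with TopHat 1.2.0 and Cufflinks 1.0.3 on genome build mm9, per the submitters' processing notes. Neither settings nor the use of strand are given in the sources used here. Overlapping genes on opposite strands therefore cannot be told apart. Each FPKM value is relative to the library's total, so a change in abundant genes moves all others, and the table holds no read counts. Relative depth was read from the most common ratio of the lowest values between libraries.

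Genes with at least 1 FPKM in at least 3 libraries (11801) were fitted on the log2(FPKM + 1) scale in R 4.3.3 with limma 3.58.1, over all 12 libraries with 1 coefficient per group, 8 residual degrees of freedom and a trend of variance on mean, and called at a Benjamini-Hochberg adjusted p under 0.05. A pseudocount of 1 understates the change of low genes. Differences within paralog pairs were tested by exact two-sided permutation. The fit, depth and site scripts were tested on simulated data.

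Named genes were all 10 genes of the set, Dicer1 and Nr6a1, up to 4 genes a list with the smallest adjusted p with let-7g, counts of 5 or fewer by name, and the 5 genes most like the set and most like Hmga2. Hmox1 falls outside that rule and was singled out after its values were seen. The genes and lists were chosen with earlier results of these data known. Deviations from group means correlated between libraries of the same number (r 0.127 to 0.465 in the 15 pairs of compared groups, all above 0.1; in WT_siCtrl and KO_siNr6a1, which were not compared, the lowest was 0.0915; 12 of 12 libraries correlated best with their own number), which was read as pairing by number. No label states that pairing. The 25 alternatives covered scaling, pseudocount, filter, library weights, the replicate block, the groups in the fit, each library left out and the 4 libraries numbered 2 left out, and 1 more, added after seeing the data, is not reported here. Annotation of 3′ UTRs came from GENCODE M21 on GRCm38, not from the mm9 models behind the FPKM values.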

Additional observations from a re-analysis of the deposited data

How the results depend on the processing

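For the 10 genes, 50 results were recomputed under 25 alternatives, and 38 kept call and direction in all of them. Of 1245 values, 1195 kept both, 28 lost a call, 5 gained one and 17 changed sign, which concerned only differences that had not passed. Where a cause is not named it was not tested. The alternative of leaving out the 4 libraries numbered 2 was chosen after seeing the data.

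In KO_siNr6a1 against KO_siCtrl the number of all genes called was 5528 with library weights, 5248 with the replicate block and 2058 without the 4 libraries numbered 2 (2545 to 3813 on leaving out 1 library), and the genes of the set called lower were 2 with library weights, where Bach1 joined, and 0 without the libraries numbered 2 (limma; 1 at an unadjusted p under 0.05, Arid3a). The replicate block changed no call among the 10 genes. In KO_let-7g against WT_siCtrl the genes called lower were 2 with upper quartile, median-of-ratios and quantile scaling, where Arid3b joined, and 1 to 2 on leaving out 1 library.

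Signs changed as follows. With library weights E2f5 was -0.060 in KO_siCtrl against WT_siCtrl and Bach1 0.017 in KO_let-7g against WT_siCtrl (-0.13 to 0.0097 on leaving out 1 library). Hmga1 was -0.26 to 0.36 in KO_let-7g against KO_siCtrl and -0.10 to 0.31 in KO_siNr6a1 against KO_siCtrl on leaving out 1 library, and Hmga2 was -0.075 to 0.10 in the latter. In KO_let-7g against KO_siNr6a1 Hmga1 was -0.028 with upper quartile scaling, -0.11 with median-of-ratios scaling, -0.29 with library weights and -0.19 without the libraries numbered 2 (-0.31 to 0.27 on leaving out 1 library). The change of Hmga2 minus Hmga1 with the siRNA against Nr6a1 was -0.20 to 0.075 on leaving out 1 library.

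A filter of mean FPKM of at least 5 left Arid3b out. Without read counts, the counting error of low values, such as those of Arid3a, Arid3b and Hic2 in WT_siCtrl, is unknown.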
